A study of Mus musculus with 23 samples.

Results

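The baseline of the series is osteocyte-enriched cortical bone of vehicle-treated, nonloaded tibiae. It was taken as the 6 libraries labelled as control, non-loaded bone, 3 from the 2-week experiment and 3 from the single-bout experiment, of 23 libraries in all. They came from wild-type (WT) male C57BL/6 mice aged 5 months that drank regular water. In the 2-week set, the right tibia of each mouse was loaded at 8.25 N in 3 bouts a week for 2 weeks. In the single-bout set, the right tibia was loaded at 8.25 N in 1 bout, and the time label reads 5 days. The left tibia of the same mouse, which was not loaded, was taken 24 hours after the last bout in both sets, and each library pooled the left tibiae of 2 mice. No library therefore came from a mouse that was never loaded. The remaining 17 libraries were from loaded right tibiae or from mice given L-BAIBA (L-β-aminoisobutyric acid, a metabolite released by contracting muscle) in the drinking water. Time, mice and the processing of the libraries (1 deposited table for each experiment) all changed together between the 2-week and the single-bout set, and their parts in any difference cannot be told apart.

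Osteocytes are former osteoblasts that have been buried in the matrix they made. Osteoblasts on the bone surface secrete type I collagen and the proteins that mineralize it, and a cell that becomes embedded turns on genes for phosphate handling and for sclerostin, a secreted inhibitor of Wnt signaling that restrains further bone formation. To enrich for osteocytes, soft tissue and the ends of the bone were cut away, the marrow was flushed out, and the bone pieces were digested in collagenase, EDTA and collagenase again to strip cells from the surface. Levels are given as CPM, the read counts of a gene divided by those of the library and scaled by the trimmed mean of M values (TMM). Levels of different genes are ranked by CPM per kb of exon length. Shares of counts and sums over marker lists are not corrected for length. Such sums depend on the number and the length of the markers. Expression was read in 15492 genes that were measured in both experiments, from 9627587 to 16961658 counts per 2-week library and from 20674516 to 36731435 counts per single-bout library.

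Between 13612 and 14108 genes exceeded 1 CPM in the 2-week libraries, and between 13649 and 14404 in the single-bout libraries. Counts were spread over many genes: the most abundant genes that together made up 50% of the counts numbered 1000, 921 and 1012 in the 2-week libraries, against 986, 1103 and 982 in the single-bout libraries. By counts, the single most abundant transcript was *Col1a2*, a chain of type I collagen, in 2-week replicate 1 and *Rn45s*, the 45S precursor of ribosomal RNA, in the other 5 libraries. *Rn45s* took 0.712, 4.0 and 3.56% of counts in the 2-week libraries, against 5.49, 1.5 and 5.48% in the single-bout libraries, so that 1 library of each set stood below the other libraries of its set. The libraries were made for mRNA, which this precursor is not, so its share need not reflect its level in the tissue.

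Neutrophil proteins and the matrix of bone headed the list by length-corrected abundance. *S100a9* and *S100a8*, the subunits of calprotectin, which fills the cytosol of neutrophils, had the highest levels of all genes. *S100a9* was at 11166 ± 3715 CPM per kb in the 2-week set and 13289 ± 2437 CPM per kb in the single-bout set (SD, n = 3 each), and *S100a8* was at 10986 ± 2790.5 CPM per kb in the 2-week set and 12953 ± 1985 CPM per kb in the single-bout set. The neutrophil granule protein *Ngp* came next, at 5705 ± 838 CPM per kb in the 2-week set and 6835 ± 1641 CPM per kb in the single-bout set. The type I collagen chains *Col1a1* and *Col1a2* followed after *Rn45s*, with *Col1a1* at 4628 ± 766 CPM per kb in the 2-week set and 1856 ± 488 CPM per kb in the single-bout set and *Col1a2* at 4370.0 ± 789.7 CPM per kb in the 2-week set and 1778 ± 456 CPM per kb in the single-bout set. The other genes of myeloid cells among the first 25 were *Lyz2* (lysozyme), *Camp* (cathelicidin), *Lcn2* (lipocalin 2) and *Ltf* (lactoferrin), and the other genes of bone matrix were *Sparc* (osteonectin), *Spp1* (osteopontin) and *Mepe*, a phosphoglycoprotein secreted by osteocytes. The rest were genes that most cells use, such as *Eef1a1* (translation elongation), *Actb* and *Tmsb4x* (actin and its sequestering peptide), *Ftl1* and *Fth1* (ferritin) and ribosomal proteins. All 25 stayed in the first 25 when plain CPM of each table was used in place of TMM-scaled CPM, and 20 genes were among the first 25 of both sets taken alone. The dot plot of the 25 most abundant transcripts shows each library.

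**Figure D1:**
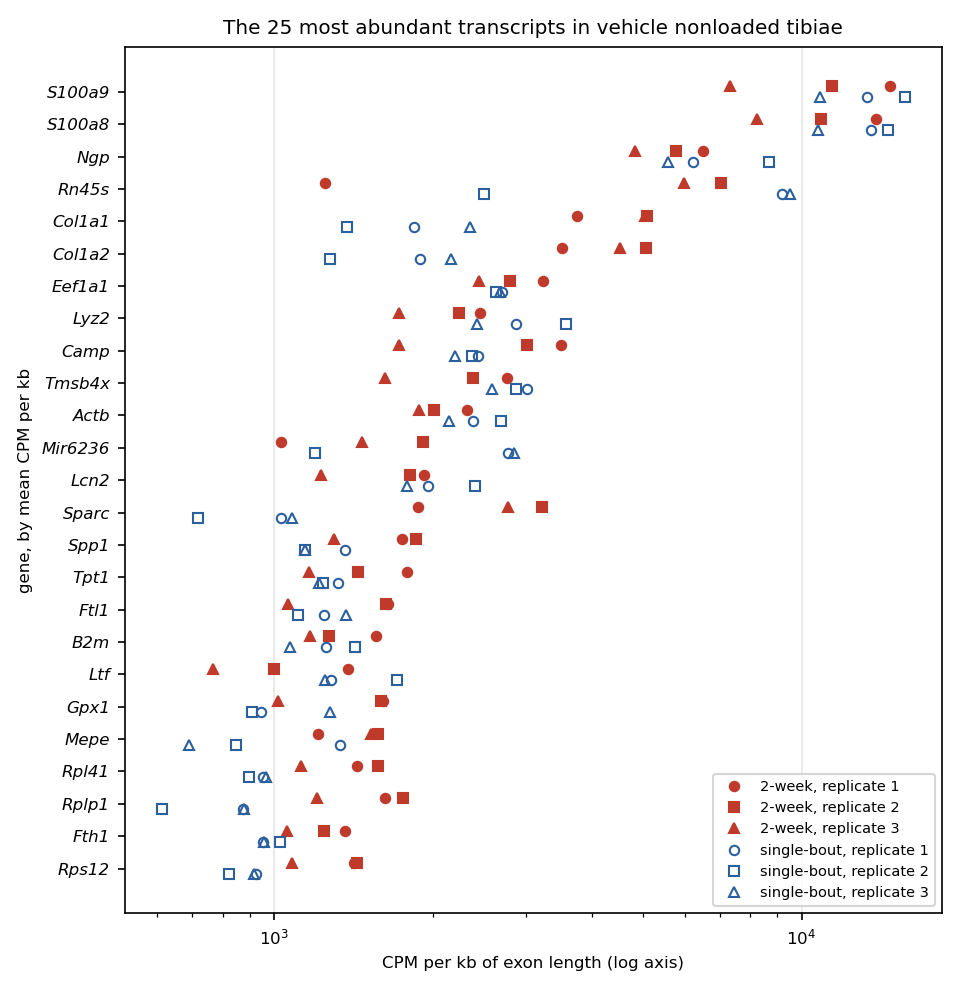
Level of the 25 genes with the highest mean CPM per kb of exon length in each vehicle nonloaded library (log axis), with filled red symbols for the 3 2-week libraries and open blue symbols for the 3 single-bout libraries. The 2 sets of symbols separate for *Col1a1*, *Col1a2* and *Sparc*, and *Rn45s* has the widest spread within a set.

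Osteocyte markers were abundant in all 6 libraries. *Sost*, the gene of sclerostin (chr11:101962458-101967015 in mm10), was at 1570.3, 2559 and 2876 CPM in the 2-week libraries, against 3374, 1609 and 1524 CPM in the single-bout libraries. *Mepe* was at 2038, 2653 and 2564 CPM in the 2-week libraries, against 2239.7, 1425 and 1158 CPM in the single-bout libraries. *Dmp1*, which binds calcium and directs mineral to collagen, was at 2639, 1388 and 1493 CPM in the 2-week libraries, against 2043, 1204 and 1156 CPM in the single-bout libraries. These levels overlapped between the sets, and single-bout replicate 1 was the highest library of its set for each of the 3 genes. Per kb, *Sost* ranked 26th of all genes, at 1130.2 ± 329.7 CPM per kb in the 2-week set and 1049.9 ± 506 CPM per kb in the single-bout set. The endopeptidase gene *Phex*, whose product cleaves peptides of this family, was lower, at 62.4 ± 9.58 CPM per kb in the 2-week set and 59 ± 19.2 CPM per kb in the single-bout set. The podoplanin gene *Pdpn*, a marker of young osteocytes with growing dendrites, was at 15.1 ± 3.35 CPM per kb in the 2-week set and 9.28 ± 2.19 CPM per kb in the single-bout set. *Fgf23*, the phosphate-lowering hormone that osteocytes release, was the least abundant of the 13 markers, at 7.92, 4.85 and 11 CPM in the 2-week libraries, against 15.5, 16.1 and 12.7 CPM in the single-bout libraries. The 13 markers summed to 7936, 8141 and 8603 CPM in the 2-week libraries, against 9751, 5818 and 5171 CPM in the single-bout libraries. Of the 13, 12 had the highest value of the single-bout set in replicate 1, and 10 had the lowest value of that set in replicate 3, whereas in the 2-week set the highest values were divided among the 3 libraries.

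Summed over their list, osteoblast and matrix transcripts exceeded those of osteocytes. Bulk RNA does not show whether osteoblasts or osteocytes made a transcript of either list. The 18 osteoblast markers, which include the type I collagen chains, made up 4.46, 6.31 and 6.04% of all counts in the 2-week libraries, against 2.55, 1.85 and 2.79% in the single-bout libraries. *Col1a1* and *Col1a2* alone took 3.48, 4.86 and 4.79% of counts in the 2-week libraries, against 1.88, 1.33 and 2.19% in the single-bout libraries. The median marker was at a similar level in both lists, 55.91 CPM per kb for osteoblast and 50.75 CPM per kb for osteocyte markers. After the collagens and *Sparc*, the most abundant per kb were *Spp1*, at 1636 ± 297 CPM per kb in the 2-week set and 1219 ± 127 CPM per kb in the single-bout set, *Ibsp* (bone sialoprotein), at 459 ± 119.7 CPM per kb in the 2-week set and 239.9 ± 18.9 CPM per kb in the single-bout set, and *Bglap* (osteocalcin), at 465 ± 128 CPM per kb in the 2-week set and 134 ± 59.1 CPM per kb in the single-bout set. The transcription factors *Runx2* and *Sp7*, which commit cells to the osteoblast lineage, were scarcer. *Runx2* was at 15.2 ± 2.48 CPM per kb in the 2-week set and 15.4 ± 0.797 CPM per kb in the single-bout set, and *Sp7* was at 54.3 ± 5.36 CPM per kb in the 2-week set and 27.9 ± 2.85 CPM per kb in the single-bout set. *Bglap3*, another osteocalcin copy of the mouse, was at 1.51, 1.49 and 1.84 CPM in the 2-week libraries, against 2.88, 1.2 and 0.966 CPM in the single-bout libraries.

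RNA of other cells remained after flushing and digestion. In bulk RNA, fewer cells of a type and less RNA per cell cannot be told apart, so the values below are of RNA and not of cells. The 16 neutrophil markers measured in both tables made up 3.33, 2.73 and 2.18% of all counts in the 2-week libraries, against 3.21, 3.97 and 2.77% in the single-bout libraries, which was more than the 13 osteocyte markers did in every library. The erythroid list, without the hemoglobin genes, which were not analysed here, summed to 8387, 8925 and 7690.3 CPM in the 2-week libraries, against 5912, 6601 and 9755 CPM in the single-bout libraries, led per kb by the anion exchanger *Slc4a1* and the heme synthesis enzyme *Alas2*. Monocyte and macrophage markers summed to 2821 to 3985 CPM in the 2-week libraries, against 3798 to 5043 CPM in the single-bout libraries, of which *Lyz2* was the largest share. Osteoclast markers, led per kb by *Acp5* (tartrate-resistant acid phosphatase) and *Ctsk* (cathepsin K), summed to 2119 to 3032 CPM in the 2-week libraries, against 1872 to 2102 CPM in the single-bout libraries. The marrow stromal list, led per kb by the chemokine *Cxcl12*, summed to 1828 to 2709 CPM in the 2-week libraries, against 2099 to 2314 CPM in the single-bout libraries. Endothelial markers, led per kb by *Plvap* and *Pecam1*, summed to 1508 to 1548 CPM in the 2-week libraries, against 1038 to 1266 CPM in the single-bout libraries, and mural cell markers summed to 670.5 to 744 CPM in the 2-week libraries, against 504 to 717 CPM in the single-bout libraries. Among the lymphoid lists, B lineage markers summed to 521 to 814 CPM in the 2-week libraries, against 439.5 to 509.5 CPM in the single-bout libraries. T and NK cell markers summed to 126 to 178 CPM in the 2-week libraries, against 140.2 to 165 CPM in the single-bout libraries.

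The 11 skeletal muscle markers measured in both tables summed to 38.6 to 44.4 CPM in the 2-week libraries, against 38 to 47 CPM in the single-bout libraries, led per kb by the myosin light chain *Mylpf* and the muscle enolase *Eno3*, and *Acta1*, *Ckm*, *Myh2* and *Myh4* were not analysed here. Neuron markers summed to 13.8 to 16.3 CPM in the 2-week libraries, against 9.47 to 16 CPM in the single-bout libraries, and epidermis markers to 3.23 to 5.61 CPM in the 2-week libraries, against 4.64 to 6.75 CPM in the single-bout libraries. Schwann cell markers summed to 109.5 to 123 CPM in the 2-week libraries, against 110.2 to 128 CPM in the single-bout libraries, most of it from *Mbp* (myelin basic protein), which was at 81.6, 78.1 and 74.5 CPM in the 2-week libraries, against 76, 96.9 and 89 CPM in the single-bout libraries. Tendon markers summed to 2161 to 2368 CPM in the 2-week libraries, against 1511 to 1692 CPM in the single-bout libraries. The tendon list was uneven, with a median of 3.756 CPM per kb over 6 markers and a maximum of 257.1 CPM per kb. Markers of periosteal and connective tissue fibroblasts summed to 512 to 628 CPM in the 2-week libraries, against 381 to 528 CPM in the single-bout libraries. Transcripts of cells in division were present, such as *Mki67*, a marker of proliferating cells, at 2665, 2378 and 2778 CPM in the 2-week libraries, against 2054, 2776 and 3288 CPM in the single-bout libraries. The plot of marker sums by library shows all 24 cell type lists.

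**Figure D2:**
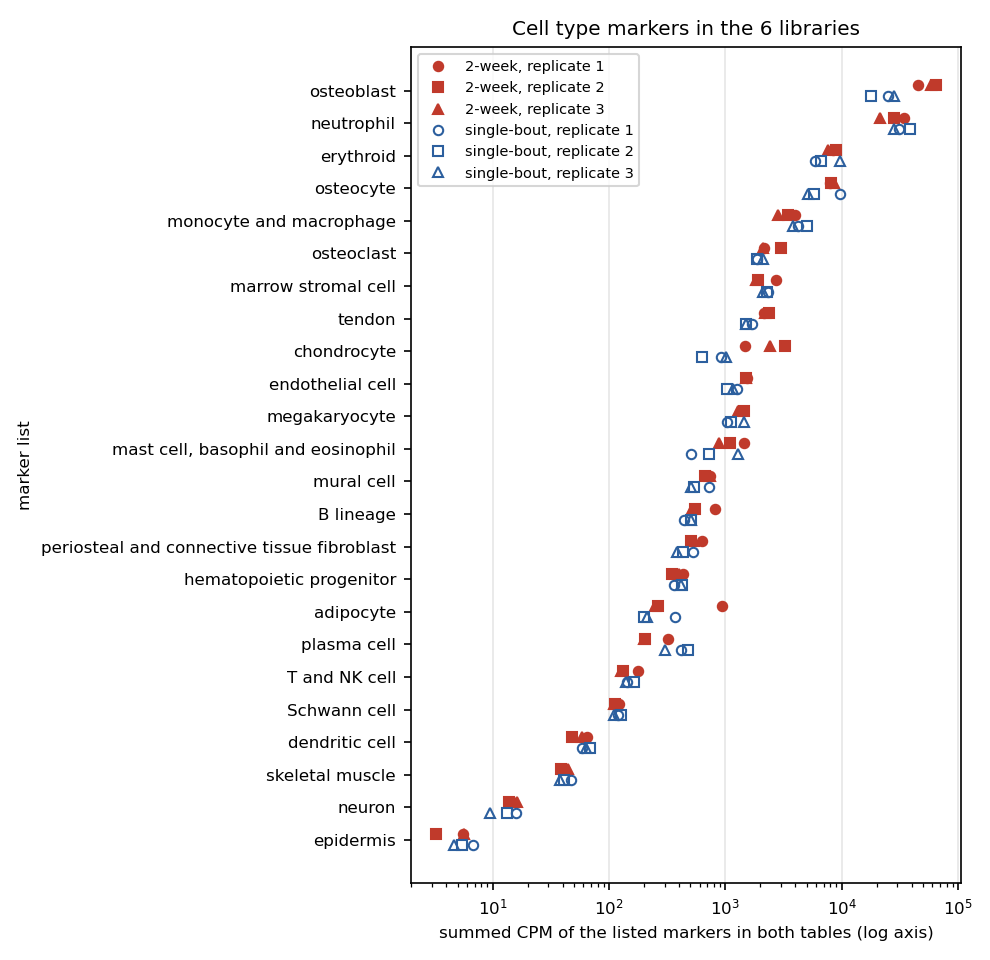
Summed CPM of the markers of 24 cell types in each vehicle nonloaded library (log axis), counting only markers measured in both tables, with filled red symbols for 2-week and open blue symbols for single-bout libraries. Osteoblast and neutrophil markers have the highest sums in every library, and neuron and epidermis markers the lowest.

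Genes of signals between osteocytes and their neighbors spanned a wide range of levels. Bulk RNA does not show which cells made them. Among Wnt antagonists, *Sost* was followed by *Wif1*, at 104 ± 12.2 CPM per kb in the 2-week set and 75.2 ± 19.2 CPM per kb in the single-bout set, and *Dkk1*, at 58.6 ± 20.8 CPM per kb in the 2-week set and 42.9 ± 21.6 CPM per kb in the single-bout set. Wnt ligands were low, the most abundant over the 6 libraries being *Wnt5b* at 14.7 ± 2.92 CPM per kb in the 2-week set and 9.75 ± 2.49 CPM per kb in the single-bout set and *Wnt10b* at 8.73 ± 2.63 CPM per kb in the 2-week set and 9.87 ± 3.33 CPM per kb in the single-bout set. *Wnt1*, which drives bone formation, was at 11.2, 4.33 and 4.49 CPM in the 2-week libraries, against 11.9, 5.5 and 7.32 CPM in the single-bout libraries. Of the factors that control osteoclasts, *Csf1*, which supports their precursors, was at 32.4 ± 5.66 CPM per kb in the 2-week set and 28.4 ± 1.45 CPM per kb in the single-bout set, *Tnfrsf11b* (osteoprotegerin, the decoy receptor) at 21.3 ± 3.06 CPM per kb in the 2-week set and 19.4 ± 6.69 CPM per kb in the single-bout set, and *Tnfsf11* (RANKL, the ligand) at 4.72 ± 1.86 CPM per kb in the 2-week set and 4.92 ± 1.32 CPM per kb in the single-bout set. *Tgfb1* led the transforming growth factor β (TGF-β) and bone morphogenetic protein (BMP) ligands, at 183 ± 10.2 CPM per kb in the 2-week set and 163 ± 5.04 CPM per kb in the single-bout set. The gap junction gene *Gja1* (connexin 43), which links osteocyte dendrites, was at 151 ± 18 CPM per kb in the 2-week set and 103 ± 18 CPM per kb in the single-bout set. Immediate early genes, which respond to a stimulus or to handling within minutes, were among the abundant transcripts, with *Fos* at 1938, 2106 and 1921 CPM in the 2-week libraries, against 2111, 1571 and 1672 CPM in the single-bout libraries.

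To ask what differed between the baselines of the 2 experiments, the 2-week set was compared with the single-bout set in 15177 genes by edgeR's quasi-likelihood test with Benjamini-Hochberg adjustment. Fold changes are 2-week over single-bout, and a gene was called at an adjusted p under 0.05. Of all genes tested, 236 (1.55%) were called, 184 of them higher (1.21%) and 52 lower (0.343%) in the 2-week set. Of these, 115 (0.758%) also changed more than 2-fold, 100 higher (0.659%) and 15 lower (0.0988%). Before adjustment, 3382 genes (22.3%) had a p under 0.05, and in 3989 genes (26.3%) the values of the 3 2-week libraries did not overlap those of the 3 single-bout libraries. The median log2 fold change of all genes was 0.007, and the smallest adjusted p was 0.00935. The count of calls depended on single libraries. It was 0 without 2-week replicate 2 (smallest adjusted p = 0.0521), 18 without single-bout replicate 2, 69 without single-bout replicate 3, 161 without 2-week replicate 3, 250 without single-bout replicate 1 and 1018 without 2-week replicate 1. With all 23 libraries of the series in 1 fit it was 0 (smallest adjusted p = 0.0513), with 2564 genes at an unadjusted p under 0.05. DESeq2 called 1107 genes and edgeR's likelihood ratio test called 1198, which held 235 and all 236 of the calls. None of the 59 called genes that were named by a rule given below changed its direction in any alternative fit that held it. Other called genes named here were not followed through these fits. Libraries of a set came from different mice, and the p-values measure only the spread between these pools.

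**Figure D3:**
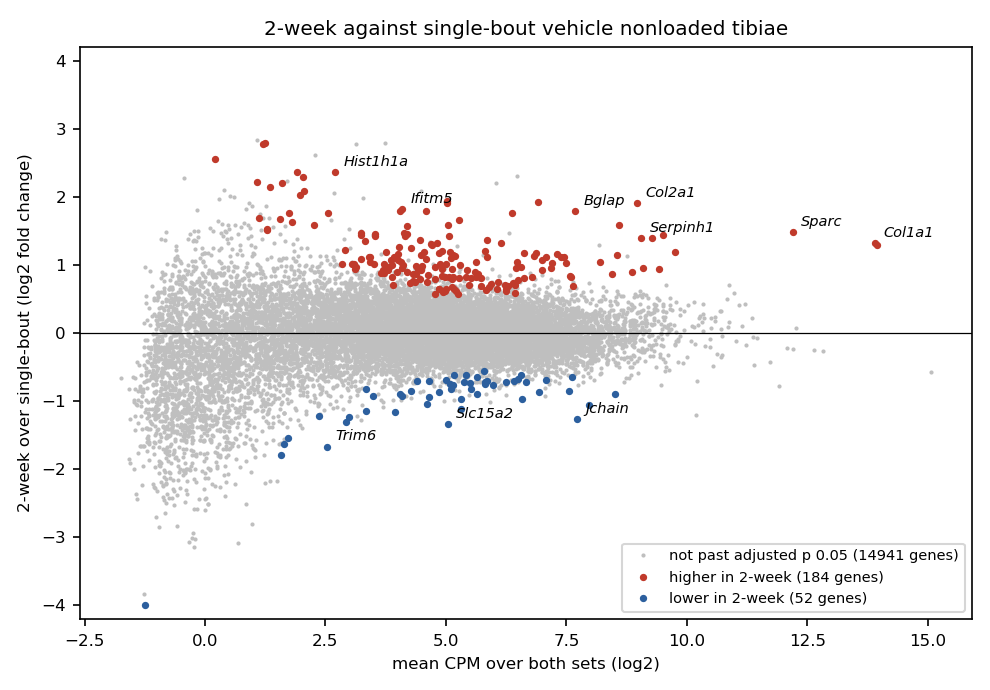
Log2 fold change (2-week over single-bout) against mean CPM (log2) for the 15177 genes tested, with called genes in red (184 higher) and blue (52 lower). The called gene *Cyp4a29*, with 0 counts in all 2-week libraries, is drawn at -4. The called genes of bone matrix (*Col1a1*, *Sparc*) lie at the right, at high abundance.

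Osteoblast genes were higher in the 2-week set. Of the 18 osteoblast markers, 12 were called higher and 0 lower, against 1.21% of all genes, and the median log2 fold change of the list was 1.08, against 0.007 for all genes. *Col1a1* (chr11:94936270-94951856) was at 17592, 23944 and 23697 CPM in the 2-week libraries, against 8664, 6456 and 11040.5 CPM in the single-bout libraries. Every 2-week library lay above every single-bout library (log2 fold change 1.32, SE 0.25, adjusted p = 0.0302). *Col1a2* moved alongside it, at 18059.5, 26051 and 23315 CPM in the 2-week libraries, against 9711, 6569 and 11151 CPM in the single-bout libraries (log2 fold change 1.30, SE 0.25, adjusted p = 0.0318). *Sparc*, which binds collagen and calcium, was at 4948, 8518 and 7335 CPM in the 2-week libraries, against 2723, 1896 and 2853 CPM in the single-bout libraries (log2 fold change 1.48, SE 0.24, adjusted p = 0.022). In these 3 genes, 2-week replicate 1 was the lowest library of its set and single-bout replicate 2 the lowest of its own. *Ifitm5* (chr7:140948962-140950239), a membrane protein made by mineralizing osteoblasts, had one of the smallest adjusted p-values of all genes. It was at 21.4, 33 and 25.2 CPM in the 2-week libraries, against 8.27, 6.16 and 8.09 CPM in the single-bout libraries (log2 fold change 1.82, SE 0.20, adjusted p = 0.00935). *Sp7* was at 112, 136 and 124 CPM in the 2-week libraries, against 68.5, 56.2 and 66.1 CPM in the single-bout libraries (log2 fold change 0.96, SE 0.14, adjusted p = 0.0115), while *Runx2* was at 122, 114 and 154 CPM in the 2-week libraries, against 132, 139 and 126 CPM in the single-bout libraries and overlapped (log2 fold change -0.02, SE 0.14, adjusted p = 0.935). The early osteoblast genes *Dlx3* and *Dlx5* had fold changes of 0.78 and 0.65 on the log2 scale and did not pass (adjusted p = 0.0613 and 0.0847). The number called in the list was 0 without 2-week replicate 2, 3 without single-bout replicate 2, 8 without single-bout replicate 3 and 8 without 2-week replicate 3, and its median log2 fold change lay between 0.94 and 1.23 over the alternatives tried.

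Osteocalcin, the vitamin K-dependent protein that osteoblasts put into the matrix, is encoded by neighboring copies in the mouse. *Bglap* (chr3:88383495-88384466) was at 291, 416 and 248 CPM in the 2-week libraries, against 114, 45.1 and 116 CPM in the single-bout libraries (log2 fold change 1.79, SE 0.32, adjusted p = 0.0261). *Bglap2* (chr3:88377736-88378699) was at 139, 260.0 and 175 CPM in the 2-week libraries, against 60.4, 26.9 and 64.3 CPM in the single-bout libraries (log2 fold change 1.92, SE 0.31, adjusted p = 0.0202). Both groups of libraries were apart in each gene, and single-bout replicate 2 was the lowest of all 6. The division of reads between the copies is uncertain, since 272 of 544 windows of 75 bases in *Bglap* transcripts and 291 of 397 (73.3%) in *Bglap2* transcripts also occur in another copy of the 3, and only reads that mapped to 1 place were counted. To show the sequence in front of called genes, the 250 bases before the start of *Bglap* and of *Ifitm5* are given from RefSeq (GRCm38.p6). They were chosen because both genes are called and in the osteoblast list. Capitals mark ACCACA, the core bound by RUNX factors, which was searched on both strands (ACCACA and its reverse complement TGTGGT). *Bglap* holds it once, starting 132 bases before the gene (chr3:88384467-88384716, minus strand), and *Ifitm5* does not hold it (chr7:140950244-140950493, minus strand).
Bglap: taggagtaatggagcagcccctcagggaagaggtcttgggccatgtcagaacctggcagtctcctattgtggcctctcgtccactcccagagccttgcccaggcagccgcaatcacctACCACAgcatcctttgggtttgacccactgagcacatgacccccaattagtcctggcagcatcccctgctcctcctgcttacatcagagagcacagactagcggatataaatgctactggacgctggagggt
Ifitm5: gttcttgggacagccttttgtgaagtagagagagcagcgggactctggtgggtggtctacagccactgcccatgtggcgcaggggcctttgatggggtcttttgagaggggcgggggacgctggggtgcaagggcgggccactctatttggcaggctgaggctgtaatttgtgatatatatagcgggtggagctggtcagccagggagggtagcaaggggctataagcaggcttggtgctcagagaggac
Of 27025 promoter windows of this length, 3832 (14.2%) held the motif. It was in 3 of the 11 osteoblast markers with an entry and in 13 (11.5%) of the 113 genes called higher with an entry. A match is only a run of letters and not a measured binding site.

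Several collagen genes were also higher. Of 42 collagen chains, 11 were called higher and 0 lower (1.21% of all genes were called higher), and the median of the list was 0.59 on the log2 scale. They were *Col1a1*, *Col1a2*, *Col2a1*, *Col5a1*, *Col5a2*, *Col11a1*, *Col11a2*, *Col13a1*, *Col15a1*, *Col16a1* and *Col22a1*, of which the first 2 are also osteoblast markers and *Col2a1* and *Col11a2* also chondrocyte markers. *Col5a2*, a chain of type V collagen, was at 846, 1182 and 1144 CPM in the 2-week libraries, against 392, 314 and 459 CPM in the single-bout libraries (log2 fold change 1.45, SE 0.19, adjusted p = 0.0104). *Col11a1* was at 688, 979 and 1037 CPM in the 2-week libraries, against 363, 274 and 389 CPM in the single-bout libraries (log2 fold change 1.40, SE 0.20, adjusted p = 0.0115). *Col3a1*, more typical of soft connective tissue, was not called, at 270.2, 201 and 255 CPM in the 2-week libraries, against 232, 159.7 and 99.8 CPM in the single-bout libraries (log2 fold change 0.56, SE 0.25, adjusted p = 0.212). *Serpinh1*, the chaperone that accompanies procollagen through the endoplasmic reticulum, was at 591, 968 and 752 CPM in the 2-week libraries, against 300.3, 255 and 328 CPM in the single-bout libraries (log2 fold change 1.39, SE 0.19, adjusted p = 0.011), and the groups were far apart. It and the prolyl 3-hydroxylase gene *P3h1* (log2 fold change 1.04) were the 2 called of 20 chaperones of the secretory pathway, a list with a median of 0.13, and the general chaperones *Hspa5* and *Calr* had log2 fold changes of 0.11 and 0.12 (adjusted p = 0.702 and 0.642). Among 17 regulators of phosphate and mineralization, 4 were called higher: *Alpl*, the alkaline phosphatase that frees phosphate, *Phospho1*, which does so inside matrix vesicles, *Smpd3* and *Ibsp*. All 4 are also osteoblast markers, none of the other regulators was called, and the median of the list was 0.41. *Alpl* was at 338, 440.2 and 411 CPM in the 2-week libraries, against 232, 176 and 167 CPM in the single-bout libraries (log2 fold change 1.05, SE 0.17, adjusted p = 0.0213). *Phospho1* was at 139, 217 and 199 CPM in the 2-week libraries, against 88.2, 76.9 and 90.5 CPM in the single-bout libraries (log2 fold change 1.12, SE 0.17, adjusted p = 0.018). *Smpd3*, a sphingomyelinase, was at 69.6, 183 and 129 CPM in the 2-week libraries, against 35.9, 30.8 and 45.7 CPM in the single-bout libraries (log2 fold change 1.76, SE 0.29, adjusted p = 0.0215). Of the collagen chains, 2 were called without single-bout replicate 2, 5 without 2-week replicate 3, 17 without 2-week replicate 1 and 0 without 2-week replicate 2. Of the phosphate and mineralization regulators, 0 were called without single-bout replicate 2 or without 2-week replicate 2, and 2 without single-bout replicate 3.

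Other genes called in the same direction encode proteins of the matrix around the cells. The 3 called of 15 metalloproteinases and inhibitors, beside 1.21% of all genes, were *Mmp2*, *Mmp16* and *Timp1*. *Mmp2* was at 181, 250.3 and 225 CPM in the 2-week libraries, against 119, 81.3 and 93.3 CPM in the single-bout libraries (log2 fold change 1.16, SE 0.17, adjusted p = 0.017), whereas *Mmp13*, a collagenase made by osteoblasts and osteocytes, was at 402, 736 and 552 CPM in the 2-week libraries, against 544, 586 and 503 CPM in the single-bout libraries (log2 fold change 0.05, SE 0.20, adjusted p = 0.902). Of 12 small leucine-rich proteoglycans, *Dcn* (decorin) and *Lum* (lumican) were called, with log2 fold changes of 1.15 and 0.84. Of 21 BMP and TGF-β ligands and their processing proteins, *Bmp1*, *Bmp3* and *Bmp8a* were called. Without single-bout replicate 2 or 2-week replicate 2, 0 were called in the metalloproteinase list and in the BMP and TGF-β list, and without 2-week replicate 3, 0 in the BMP and TGF-β list and 2 in the metalloproteinase list. *Bmp1*, the proteinase that cuts procollagen, was at 183, 294 and 250.1 CPM in the 2-week libraries, against 118, 106 and 134 CPM in the single-bout libraries (log2 fold change 1.03, SE 0.18, adjusted p = 0.0258). *Bmp8a* has a near-identical neighbor, *Bmp8b*, and its count is uncertain for that reason. The parathyroid hormone receptor gene *Pth1r* was at 91.5, 178 and 138 CPM in the 2-week libraries, against 70.0, 47.4 and 62.7 CPM in the single-bout libraries (log2 fold change 1.18, SE 0.22, adjusted p = 0.0304), and *Panx3*, a channel gene of osteoblasts and chondrocytes, at 8.82, 20.2 and 12.7 CPM in the 2-week libraries, against 5.34, 5.54 and 4.28 CPM in the single-bout libraries (log2 fold change 1.46, SE 0.28, adjusted p = 0.0303). The genes *Cpz*, *Cgref1* and *Cthrc1* were in none of the lists and were among the 12 largest increases. *Cthrc1*, a secreted protein that contains a collagen repeat, was at 29.9, 49 and 33 CPM in the 2-week libraries, against 9.3, 9.96 and 12.8 CPM in the single-bout libraries (log2 fold change 1.80, SE 0.21, adjusted p = 0.00935). *Cgref1* was at 37.8, 68.1 and 49 CPM in the 2-week libraries, against 14.2, 10.6 and 16.4 CPM in the single-bout libraries (log2 fold change 1.91, SE 0.22, adjusted p = 0.00935).

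The 16 chondrocyte markers measured in both tables summed to 1478, 3266 and 2428 CPM in the 2-week libraries, against 924, 624 and 1014 CPM in the single-bout libraries, and these sums did not overlap. Only *Col2a1* and *Col11a2* were called, beside 1.21% of all genes called higher. The median log2 fold change of the list was 1.5. Of the 16, 10 were higher at an unadjusted p under 0.05, beside 11.8% of all genes. The values of the 2 sets did not overlap in 2 of the 16, beside 26.3% of all genes. *Col2a1* (chr15:97975602-98004724), the chain of type II collagen, was at 464, 1088 and 800.3 CPM in the 2-week libraries, against 171, 153 and 302 CPM in the single-bout libraries (log2 fold change 1.91, SE 0.32, adjusted p = 0.0222). *Acan* (aggrecan), the large proteoglycan of cartilage, was at 0.967, 75.7 and 30.8 CPM in the 2-week libraries, against 15.3, 4.54 and 5.88 CPM in the single-bout libraries (log2 fold change 2.08, SE 0.89, adjusted p = 0.199). *Col10a1*, made by hypertrophic cartilage, was at 0.363, 45.5 and 23.5 CPM in the 2-week libraries, against 5.43, 2.83 and 1.99 CPM in the single-bout libraries (log2 fold change 2.78, SE 0.91, adjusted p = 0.118). In both genes 2-week replicate 1 lay below every single-bout library. All 16 markers were lowest in replicate 1 within the 2-week set, and 14 were highest in replicate 2. Without 2-week replicate 1, 13 of the 16 were called, without 2-week replicate 3 only 1, and without 2-week replicate 2 or single-bout replicate 2, 0. With 1 library left out, the median of the list ran from 0.74 (without 2-week replicate 2) to 2.03 (without 2-week replicate 1). The part of cartilage in the difference between the sets was not tested.

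Histone genes gave the largest increases among the called genes of at least 5 CPM. Of 52 replication-dependent histone genes, 13 were called higher (1.21% of all genes were) and 0 lower, and the median of the list was 1.45 on the log2 scale. These genes are transcribed in S phase, and most of their mRNAs end in a stem-loop instead of a poly(A) tail. *Hist1h1a* (chr13:23763668-23764412), which encodes a linker histone, was at 14.1, 11.3 and 7.14 CPM in the 2-week libraries, against 2.5, 1.32 and 2.51 CPM in the single-bout libraries (log2 fold change 2.37, SE 0.31, adjusted p = 0.0104). *Hist1h1d*, another linker histone, was at 28, 30.9 and 22.6 CPM in the 2-week libraries, against 10.5, 5.85 and 11.1 CPM in the single-bout libraries (log2 fold change 1.57, SE 0.23, adjusted p = 0.015). The core histone *Hist2h2bb* was at 5.98, 8.27 and 4.69 CPM in the 2-week libraries, against 1.32, 0.93 and 1.44 CPM in the single-bout libraries (log2 fold change 2.36, SE 0.32, adjusted p = 0.011), and *Hist1h2ak* at 4.71, 9.24 and 6.33 CPM in the 2-week libraries, against 1.89, 0.582 and 1.66 CPM in the single-bout libraries (log2 fold change 2.29, SE 0.41, adjusted p = 0.0277). The 2 sets did not overlap in these 4 genes, and the highest value among them was 30.9 CPM, of *Hist1h1d*. The most abundant member, *Hist1h1c*, was at 123, 73.5 and 45.9 CPM in the 2-week libraries, against 132, 67.2 and 86.2 CPM in the single-bout libraries and overlapped (log2 fold change -0.23, SE 0.31, adjusted p = 0.688). The sum of the list was 454, 463 and 319 CPM in the 2-week libraries, against 372, 199.9 and 295 CPM in the single-bout libraries. Markers of the cell cycle did not move with the histones: of 32, 0 were called in either direction by edgeR's quasi-likelihood test. By that test 1 had an unadjusted p under 0.05, beside 22.3% of all genes. Their median log2 fold change was 0.00. Copies of histone genes are nearly identical, and reads that fit several copies were not counted. The number called was 0 without 2-week replicate 2, 21 without 2-week replicate 1, 7 without single-bout replicate 1, 2 without single-bout replicate 2 and 5 without single-bout replicate 3.

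Fewer genes were lower in the 2-week set, and only 1 of the 52 was in any of the lists. That gene was *Jchain*, a plasma cell marker that encodes the joining chain of secreted immunoglobulins, at 176, 96.7 and 102 CPM in the 2-week libraries, against 314, 376 and 208 CPM in the single-bout libraries (log2 fold change -1.26, SE 0.26, adjusted p = 0.0387). The plasma cell list summed to 324, 204 and 198 CPM in the 2-week libraries, against 414, 476 and 306 CPM in the single-bout libraries, and its other markers were not called, among them *Sdc1*, with a log2 fold change of 0.63, and *Mzb1*, with 0.06. The largest decrease among genes of at least 5 CPM was that of *Trim6*, a ubiquitin ligase, at 3.26, 1.23 and 3.98 CPM in the 2-week libraries, against 10.3, 8.3 and 7.81 CPM in the single-bout libraries (log2 fold change -1.67, SE 0.34, adjusted p = 0.039). *Slc15a2*, a peptide transporter, was at 22.3, 17.6 and 15.9 CPM in the 2-week libraries, against 53.3, 39.6 and 48.8 CPM in the single-bout libraries (log2 fold change -1.34, SE 0.17, adjusted p = 0.00966). Its groups were apart by more than the spread within either. Genes of myeloid cells and of the interferon response were among the 12 largest decreases. *Slfn4*, which is made by myeloid cells, was at 167, 173 and 149.9 CPM in the 2-week libraries, against 333, 434 and 252 CPM in the single-bout libraries (log2 fold change -1.06, SE 0.19, adjusted p = 0.0263). *Ddx60*, which is induced by interferon, was at 11.1, 7.24 and 10.3 CPM in the 2-week libraries, against 20.9, 26.8 and 16.3 CPM in the single-bout libraries (log2 fold change -1.16, SE 0.22, adjusted p = 0.0309). The separate list of 24 interferon-induced genes held 0 calls in either direction. At an unadjusted p under 0.05, 1 was higher and 7 were lower, beside 11.8% and 10.5% of all genes. The median of its log2 fold changes was -0.30. The remaining genes among the 12 were *Gt(ROSA)26Sor*, *Ptp4a1*, *Trim36*, *Cxadr*, *Gpr141*, *Klra2* and *AI504432*, with log2 fold changes between -1.31 and -0.97. *Cyp4a29*, named because it had the extreme fitted value, was at 0, 0 and 0 CPM in the 2-week libraries, against 0.897, 0.969 and 0.663 CPM in the single-bout libraries, and no fold is given against libraries at 0.

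**Figure D4:**
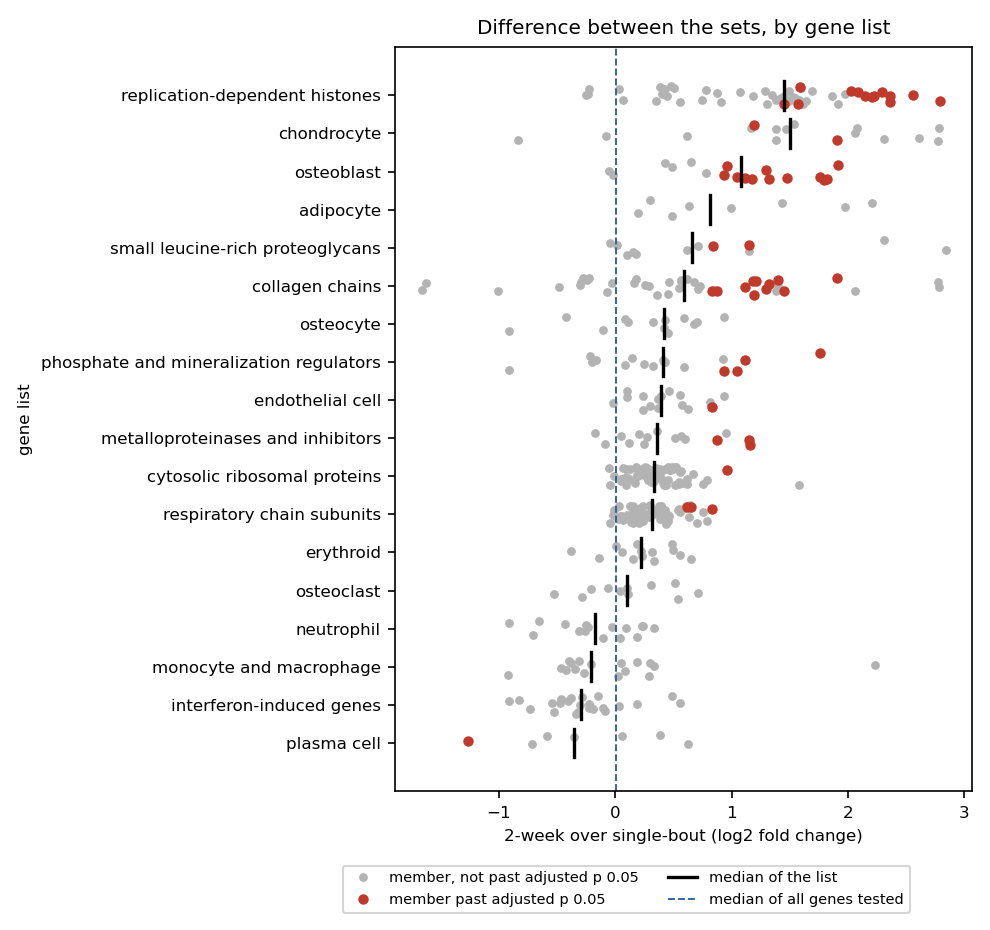
Log2 fold change (2-week over single-bout) of each tested member of 18 gene lists, with called members in red, a black bar at the median of the list and a dashed line at the median of all genes tested (0.007). The medians of the histone, chondrocyte and osteoblast lists lie above 1, and those of the neutrophil, monocyte, interferon and plasma cell lists lie below 0.

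Osteocyte markers were not called in either direction. Values of 10 were higher and of 3 were lower in the 2-week set, and the list had a median log2 fold change of 0.42. DESeq2 and the likelihood ratio test each called 3 of them, beside 1107 and 1198 of all 15177 genes. In the quasi-likelihood test 7 had an unadjusted p under 0.05, beside 22.3% of all genes. *Irx5*, a transcription factor, came closest (log2 fold change 0.94, SE 0.23, adjusted p = 0.0589). *Fgf23* went the other way (log2 fold change -0.92, SE 0.26, adjusted p = 0.0794), with the 2-week libraries all below the single-bout libraries. For *Sost* the sets overlapped (log2 fold change 0.11, SE 0.31, adjusted p = 0.863). Neutrophil markers had 0 calls of 16, a median log2 fold change of -0.17 and sums of 34180.4, 28084 and 21411 CPM in the 2-week libraries, against 31311, 38789 and 28076 CPM in the single-bout libraries, which overlapped. Erythroid, osteoclast, monocyte, mural, T and NK cell lists also held 0 calls each. Among endothelial markers 1 of 17 was called, beside 1.21% of all genes called higher. It was *Plvap*, a protein of fenestrated vessels, at 124, 160.0 and 140.3 CPM in the 2-week libraries, against 93.4, 66.6 and 78.8 CPM in the single-bout libraries (log2 fold change 0.83, SE 0.16, adjusted p = 0.0303). Of the 17, 16 were higher in the 2-week set, beside 7710 of all 15177 genes. Of 24 sums over cell type lists, 6 did not overlap between the sets (osteoblast, tendon, chondrocyte, osteoclast, endothelial cell and B lineage), all higher in the 2-week set, beside 26.3% of single genes that did not overlap (13.6% higher). An exact two-sided permutation test of 3 against 3 libraries cannot go below p = 0.1.

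Of 78 cytosolic ribosomal protein genes, 75 were higher in the 2-week set, with a median log2 fold change of 0.33, but only *Rplp1* was called (log2 fold change 0.96, SE 0.19, adjusted p = 0.0385), beside 1.21% of all genes called higher. Of 67 subunits of the respiratory chain, 64 were higher, with a median of 0.31, and *Uqcr11*, *Ndufs6* and *Ndufb10* were called. Within the 2-week set, all 78 ribosomal genes and 66 of the 67 subunits were lowest in replicate 3. The ribosomal sum of that library, 31633 CPM, lay below those of single-bout replicates 1 and 3, 32817 and 32492 CPM. Its respiratory chain sum, 5437 CPM, lay below the 5613 CPM of single-bout replicate 3. Most of the ribosomal and respiratory chain genes are short. Exon length moved with the fold change over all genes in vehicle nonloaded tibiae. In the 1518 genes with the shortest exons, 45 to 1138 bases, the median log2 fold change was 0.24, and in the 1518 with the longest, 6377 to 104320 bases, it was -0.17. Genes called higher had a median exon length of 2144 bases and genes called lower one of 4518 bases, against 2894 bases over all genes. With an offset for exon length in each library, 176 genes were called, 149 of them shared with the 236, and the osteoblast list held 11, with a median log2 fold change of 1.03. With this offset the median was 0.07 for the ribosomal genes and 0.10 for the respiratory chain subunits, and 0 were called in either list. The histone list held 7 calls in place of 13 and had a median of 1.12. For the same shortest and longest genes, the medians of this comparison were 0.2 and 0.0 in L-BAIBA nonloaded tibiae. They were -0.07 and 0.02 in vehicle loaded and 0.03 and 0.15 in L-BAIBA loaded tibiae. In the same 3 groups the ribosomal list had medians of 0.32, -0.1 and 0.02. The respiratory chain list had medians of 0.23, -0.09 and -0.01 there. What lies behind the shift with length was not tested.

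The 2-week and single-bout libraries of the other groups of the series were then compared in the same way. In L-BAIBA groups the sets also differed in time on L-BAIBA, 2 weeks against 5 days. In loaded groups they also differed in the number of bouts. All groups of an experiment were in the same deposited table. A direction shared between groups therefore cannot separate processing from time or mice. In nonloaded tibiae of L-BAIBA-treated mice, 3 libraries from the 2-week and 2 from the single-bout experiment, 63 of 15084 genes (0.418%) were called, 59 higher (0.391%) and 4 lower (0.0265%). These libraries come from other mice than the vehicle libraries. The count was 0 and 14 without single-bout replicate 1 and 2, and 226, 8 and 11 without 2-week replicate 1, 2 and 3. With either single-bout library left out that set has 1 library, which is assumed to vary like the 2-week libraries. Of the 184 genes called higher in vehicle tibiae, 181 were also higher and 45 also called higher there. The 45 are 19.1% of the 236 genes called in vehicle tibiae and 71.4% of the 63 called in L-BAIBA tibiae. Of the 51 genes called lower in vehicle tibiae that were tested there, 43 had the same direction and 0 were called. Over the 14904 genes tested in both, 63.3% had the same direction. Several bone matrix genes were called in both groups. In L-BAIBA nonloaded tibiae, *Sparc* had a log2 fold change of 2.24 (adjusted p = 0.0283), *Ifitm5* one of 2.21 (adjusted p = 0.0185) and *Bglap* one of 2.32 (adjusted p = 0.00957). *Cthrc1* had the smallest adjusted p there together with *Cgref1*, with a log2 fold change of 3.14 (adjusted p = 0.00676). *Col1a1* had a log2 fold change of 2.27 and did not pass (adjusted p = 0.0923). The histone list had a median log2 fold change of 0.70 and 0 calls there, and *Hist1h1a* one of 1.65 (adjusted p = 0.173). Among the genes called lower in vehicle tibiae, *Jchain* had a log2 fold change of -0.31 there (adjusted p = 0.619), *Trim6* one of 0.21 (adjusted p = 0.879), *Slc15a2* one of 0.87 (adjusted p = 0.282) and *Slfn4* one of -1.64 (adjusted p = 0.0849).

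**Figure D5:**
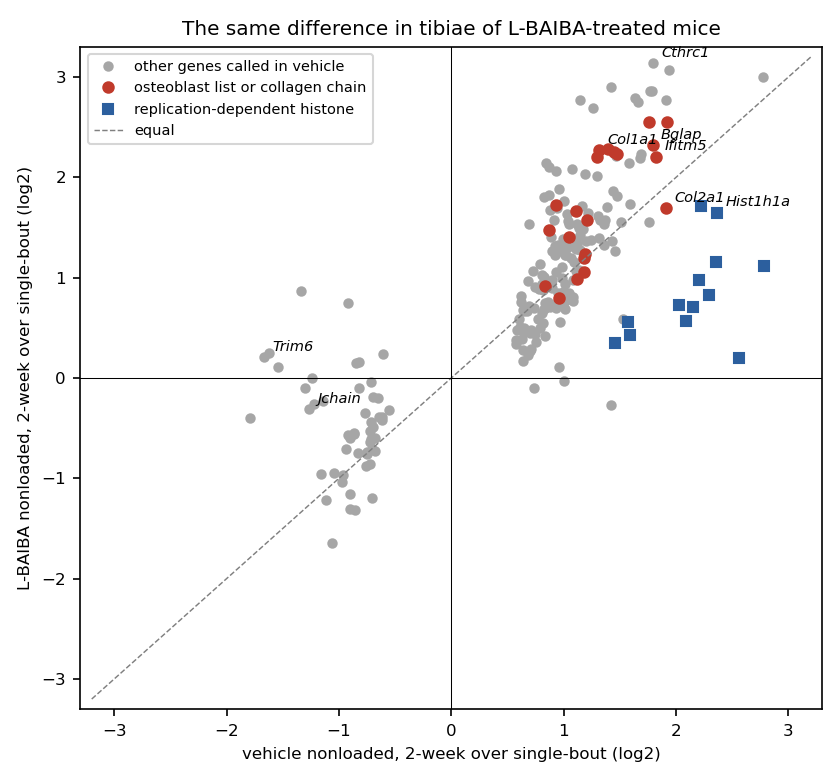
Log2 fold change (2-week over single-bout) in vehicle nonloaded tibiae (horizontal) and in L-BAIBA nonloaded tibiae (vertical) for the genes called in vehicle tibiae and tested in both, with osteoblast and collagen genes in red, replication-dependent histones as blue squares and a dashed line of equal change. Most red points lie above the line and all 13 histones lie below it. The difference between the groups did not pass the test for any gene, in a fit of all 23 libraries. Such a fit also called 0 genes for the vehicle contrast alone.

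A test of the difference between these contrasts (vehicle minus L-BAIBA, all 23 libraries) passed for 0 of 15492 genes by edgeR's quasi-likelihood test (smallest adjusted p = 0.662, 1146 genes at an unadjusted p under 0.05) and for 0 by its likelihood ratio test. By the quasi-likelihood test, a fit of all 23 libraries also called 0 genes for the vehicle contrast alone (smallest adjusted p = 0.0513). The count of 0 therefore does not show that the contrasts are alike. The difference for *Hist1h2ak* was 1.5 and that for *Slc15a2* was -2.20 on the log2 scale. In loaded tibiae, 0 of 15159 genes passed in vehicle-treated mice and 0 of 14742 in L-BAIBA-treated mice by the quasi-likelihood test, with 2742 (18.1%) and 1692 (11.5%) at an unadjusted p under 0.05. DESeq2 called 828 and 240 in these 2 groups, and the likelihood ratio test called 692 and 152. The quasi-likelihood test called 218 in vehicle-treated mice without 2-week replicate 3, and 5 in L-BAIBA-treated mice without single-bout replicate 3. The loaded libraries of both treatments come partly from the same mice as the nonloaded ones of that treatment. The osteoblast list had a median log2 fold change of 1.05 in vehicle loaded and 0.82 in L-BAIBA loaded tibiae, beside 1.27 in L-BAIBA nonloaded and 1.08 in vehicle nonloaded tibiae. The histone list had medians of 0.73 and 0.35 in the loaded groups.

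Libraries of a set also differed among themselves, and the genes that varied most fell into a few groups. Among cartilage genes, *Acan* and *Chad* were far lower in 2-week replicate 1 than in the other 2-week libraries. *Chad* (chondroadherin) was at 3.87, 324 and 116 CPM in the 2-week libraries, against 48, 14.8 and 26.9 CPM in the single-bout libraries, so that the 2-week libraries alone spanned the range of the other set. *Comp*, a matrix protein of cartilage and tendon, was at 61.3, 215 and 70.8 CPM in the 2-week libraries, against 71, 23.7 and 31.6 CPM in the single-bout libraries. Genes of fat and lipid synthesis were highest in 2-week replicate 1. *Cfd* (adipsin) was at 266, 32.1 and 23.7 CPM in the 2-week libraries, against 51.8, 10.3 and 8.59 CPM in the single-bout libraries. *Scd1*, a fatty acid desaturase, was at 1392, 185 and 211 CPM in the 2-week libraries, against 486, 184 and 149.7 CPM in the single-bout libraries. In the single-bout set all 5 of these genes, cartilage and fat alike, were highest in replicate 1. In the 2-week set all 8 adipocyte markers were highest in replicate 1, and in the single-bout set 7 of the 8 were highest in replicate 1. The adipocyte list summed to 930.5, 261 and 249 CPM in the 2-week libraries, against 370.4, 202 and 211 CPM in the single-bout libraries. Stress genes were high in the same 2-week library: *Cryab*, a small heat shock protein, was at 109, 27.5 and 23.3 CPM in the 2-week libraries, against 19.7, 15.9 and 30.5 CPM in the single-bout libraries, and *Slc7a11*, the cystine transporter, at 72.9, 16.4 and 19.3 CPM in the 2-week libraries, against 8.12, 19.5 and 15.4 CPM in the single-bout libraries. The heat shock gene *Hspa1b* was at 96.8, 20.8 and 29.5 CPM in the 2-week libraries, against 23.9, 71.6 and 62.2 CPM in the single-bout libraries, and the glycerol phosphate dehydrogenase *Gpd1* at 53.8, 11 and 14.9 CPM in the 2-week libraries, against 18.4, 12.2 and 13.3 CPM in the single-bout libraries. None of these genes was called. Marker lists also tracked single libraries in the single-bout set. All 14 erythroid markers were highest in replicate 3, and 13 of 16 neutrophil markers were highest in replicate 2, while osteocyte markers were highest in replicate 1. The spread was larger in the 2-week set for scarce genes. Under 2 CPM, the median SD of log2 CPM was 0.70 in the 2-week set and 0.44 in the single-bout set. Between 100 and 1000 CPM it was equal in both, 0.16. The 2-week libraries held fewer counts, 9627587 to 16961658 against 20674516 to 36731435. In them 242, 111 and 28 of the shared genes were at 0 counts, against 0 in each single-bout library. The part of depth in this spread was not tested.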

How the data were processed

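RNA of flushed and digested tibiae was made into strand-specific mRNA libraries (KAPA mRNA HyperPrep kit) and sequenced from both ends at 75 bases on a HiSeq4000 (RNA integrity number at least 4). The authors aligned reads to mm10 with STAR 2.5.2b and deposited counts of uniquely mapped reads per refSeq gene from featureCounts (Subread 1.5.1, reverse-stranded, mapping quality at least 10), after keeping genes by CPM. The deposited tables also hold exon length in bases, which was used, and the authors' log2 normalized values, fold changes and p-values, which were not. Of 15962 genes listed for the 2-week and 15762 for the single-bout experiment, 15492 were in both tables, with the same exon length. Levels and tests were computed here from the counts in R 4.3.3 with edgeR 4.0.16 (TMM, quasi-likelihood F test, CPM over 0.5 in at least 3 of 6 libraries, Benjamini-Hochberg over all genes tested), fitted to the 6 libraries alone. The test was tested on simulated data. Alternatives were DESeq2 1.42.0 and its size factors, no scaling, the likelihood ratio test, no filter or CPM over 1 in at least 4 libraries, all 23 libraries, the replicate number as a block, each library left out, removal of histones, hemoglobins and short noncoding RNAs, and, chosen after seeing the data, an offset for exon length.

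The genes named are the 25 highest by CPM per kb, the 12 highest and the 12 lowest called by fold change (mean of at least 5 CPM in the higher set and no overlap), the 10 with the largest spread within sets among genes of at least 20 CPM, and, of each list described, up to 4 of the highest level and up to 3 of the smallest p. Others were chosen after their values were seen, to show the range of a list. The libraries, the lists and the comparisons were chosen with earlier results of these data known, so no list is independent evidence of its direction. Promoter sequences are from RefSeq (GRCm38.p6).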

Additional observations from a re-analysis of the deposited data

How the results depend on the processing

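The count of 236 genes called between the vehicle nonloaded sets (184 higher, 52 lower, 115 past 2-fold) moved with the test and with single libraries. DESeq2 called 1107 (630 higher, 477 lower, 228 past 2-fold), the likelihood ratio test 1198 (695 higher, 503 lower, 320 past 2-fold), and the fit of all 23 libraries 0 in either direction and 0 past 2-fold. With 1 library left out, the count ran from 0 to 1018, with 0 to 596 higher, 0 to 422 lower and 0 to 290 past 2-fold. Other scalings, filters, the removal of gene classes and the offset for exon length gave 169 to 229 calls. In L-BAIBA nonloaded tibiae, DESeq2 called 726 and the likelihood ratio test 720 in place of 63, and leaving out 1 library gave 0 to 226. In loaded tibiae, where the quasi-likelihood test called 0, DESeq2 called 828 in vehicle-treated and 240 in L-BAIBA-treated mice and the likelihood ratio test 692 and 152, and leaving out 1 library gave 0 to 218 in vehicle-treated and 0 to 5 in L-BAIBA-treated mice. The causes were not tested.

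With the replicate number as a block, 112 genes were called (100 higher, 12 lower), 103 of them shared with the 236. The replicate numbers do not pair the libraries: the deviations of same-numbered libraries from their set means correlated at -0.08, -0.40 and -0.10 over genes. For single named genes, 4473 of the alternative values stayed on the same side of the threshold, 275 fell to the other side and 144 came past it. Of the 59 called genes named by a rule, 0 reversed. A change of direction in a gene that passed in neither fit was not counted as a reversal. Each library pools 2 mice and each set has 3 libraries, the RNA integrity number could be as low as 4, and 2-week replicate 3 had the fewest counts, 9627587.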

Other observations

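Some genes were in 1 table only and entered no comparison, 470 of them only with 2-week values and 270 only with single-bout values. Most were scarce: the median gene was at 0.332 CPM in the 2-week set and at 0.520 CPM in the single-bout set. In the 2-week table, 4 of them averaged over 2 CPM, and in each the value came from 1 or 2 libraries. *Cyp2e1*, a cytochrome P450 enzyme known from liver and fat, was at 14.2, 0 and 0 CPM. *Serpina1d*, a serine protease inhibitor known from liver, was at 0.059, 7.16 and 1.35 CPM. *Slc38a3*, an amino acid transporter, was at 0, 6.15 and 1.77 CPM, and *3110079O15Rik*, a member of the chondrocyte list, at 0, 8.35 and 1.66 CPM. Of the genes with single-bout values only, 0 averaged over 2 CPM.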
